A study of Mus musculus with 9 samples.

Results

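Neurotrophins are secreted proteins that act on the survival, growth and synapses of neurons. The set described here holds 6 genes of this system, all of them found in the deposited table of 24489 rows by their gene symbols. Bdnf and Ntf3 encode the ligands brain-derived neurotrophic factor and neurotrophin-3. Ntrk2 and Ntrk3 encode their receptor tyrosine kinases TrkB and TrkC, Ngfr encodes the p75 receptor, which binds all neurotrophins, and Sort1 encodes sortilin, a sorting receptor that carries proneurotrophins through the cell and pairs with p75 at its surface. In the hippocampus, BDNF acting through TrkB is known for its part in synaptic plasticity and in memory of context, and transcription of Bdnf is known to follow neuronal activity. NT-3 acts mainly through TrkC and is known to be made by granule neurons of the dentate gyrus.

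RNA came from area CA1 of the hippocampus of C57BL/J6 mice aged 9 to 12 weeks, all of which had received an adeno-associated virus (AAV) that delivered a hairpin gene. There were 3 groups of 3 biological replicates. The first had an shRNA against H2A.Z and training in contextual fear conditioning, a task that links a chamber with a foot shock. The second had the same shRNA and stayed naive, and the third had a scrambled shRNA as control. A short hairpin RNA (shRNA) lowers the mRNA it matches, and H2A.Z is a histone variant of promoters and enhancers. The sources used here do not say whether control mice were trained, when tissue was taken after training, or which promoter drives the hairpin. These groups are called trained, naive and control below.

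Levels are FPKM, that is sequenced fragments per kilobase of transcript, relative to library size. Single fragments made visible steps among low values, which put a level of 1 FPKM at roughly 18.6 to 26.9 fragments per kilobase in these libraries. The H2A.Z gene H2afz averaged 26.0 ± 2.31 FPKM in trained, 27.0 ± 1.63 in naive and 27.1 ± 1.43 in control libraries (SD, n = 3 each), so the labels "H2A.Z shRNA" could not be checked by a drop of that mRNA. CA1 markers were present, with Wfs1 highest at a mean of 81.0 FPKM over all libraries. Markers of dentate gyrus granule neurons were present too and differed between libraries. Their 15 genes summed to 136 to 236 FPKM in trained, 201 to 258 in naive and 107.7 to 210 in control libraries. Across 12327 genes tested, a log2 fold change was called at a limma adjusted p under 0.05 for 0.00811% in trained against control and in trained against naive libraries, and for 0% in naive against control libraries. The called gene was in both cases Sgk1, a kinase gene, which is no member of the set. In bulk tissue, fewer cells of a type and less RNA per cell cannot be told apart.

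Bdnf lies on chromosome 2, 109674700 to 109727007, plus strand, GRCm38, with 11 annotated transcripts that begin at 9 positions. It is known for several alternative promoters, each joined to the same coding exon, and the best studied of them responds to neuronal activity through a cAMP response element. A gene-level FPKM adds all of them. RefSeq promoter windows on GRCm38.p6, each from 250 bases before to 50 bases after an annotated start, were found for 4 of the 6 genes: 7 windows for Bdnf, 2 for Ntf3, 1 each for Ntrk2 and Ngfr. The core TGACG of the cAMP response element was searched on both strands. It was present in 1 of the 7 Bdnf windows, in which its letters begin 35 bases before the start, and in none of the 4 windows of the other genes. It was present in 20.8% of all 32851 windows. The full palindrome TGACGTCA, which contains the core, was in none of the 11 windows and in 1.79% of all. Of 3 further motifs searched on both strands, the E-box CACGTG was in 1 of the 11, the Ntf3 window shown, and in 7.15% of all. A consensus serum response element and the TATA box TATAAA were in none of the 11, and in 0.0639% and 13.6% of all windows. Shown are the Bdnf window with the core (capitals, here on the minus strand as CGTCA), the first Bdnf window, which lacks it, and the first Ntf3 window. They are shown because the results below turn on these ligand genes.
Bdnf, chr2:109692186-109692485, plus strand: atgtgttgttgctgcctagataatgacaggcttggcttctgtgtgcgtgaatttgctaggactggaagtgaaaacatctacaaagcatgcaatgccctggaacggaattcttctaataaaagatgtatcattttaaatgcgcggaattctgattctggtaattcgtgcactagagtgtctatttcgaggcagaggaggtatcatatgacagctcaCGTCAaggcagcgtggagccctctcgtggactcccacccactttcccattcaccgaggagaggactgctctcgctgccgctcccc
Bdnf, chr2:109674450-109674749, plus strand: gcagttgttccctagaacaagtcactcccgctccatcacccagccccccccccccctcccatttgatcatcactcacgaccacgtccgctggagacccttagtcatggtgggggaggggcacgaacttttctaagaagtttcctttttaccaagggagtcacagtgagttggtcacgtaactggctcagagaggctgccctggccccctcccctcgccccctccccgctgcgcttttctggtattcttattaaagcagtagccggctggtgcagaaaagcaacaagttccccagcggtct
Ntf3, chr6:126166695-126166994, minus strand: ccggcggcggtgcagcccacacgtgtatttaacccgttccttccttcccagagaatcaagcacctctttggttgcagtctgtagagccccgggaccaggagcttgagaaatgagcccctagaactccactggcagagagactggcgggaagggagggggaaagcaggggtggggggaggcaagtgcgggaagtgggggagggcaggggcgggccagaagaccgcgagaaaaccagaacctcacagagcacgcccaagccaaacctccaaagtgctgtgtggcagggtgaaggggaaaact
The Bdnf window with the core held 12 CG dinucleotides and the other 2 shown held 11 and 12, beside a median of 7 over all windows. Ntrk2 and Ngfr each had 23 CG dinucleotides in their window. The deposited values cannot say which of these starts was used.

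The 6 genes covered a wide range of levels. Sort1 was highest at 92.0 to 108.5 FPKM over the 9 libraries, followed by Ntrk2 at 68.6 to 84.0 and Ntrk3 at 23.7 to 32.1 FPKM. Bdnf came next at 13.7 to 18.5, then Ntf3 at 2.61 to 7.40 and Ngfr at 0.176 to 0.524 FPKM. No neighbours in this order overlapped in any library. Ntf5, which encodes neurotrophin-4, was listed at 0 in some libraries, and its highest level was 0.0617 FPKM. Relative to its own level, Ntf3 varied most among the 5 genes above the low-value filter, with its highest library 2.83 times its lowest, against 1.18 times for Sort1, 1.22 for Ntrk2 and 1.35 for Ntrk3 and Bdnf. The level of Ntrk2 was 2.69 ± 0.367 times that of Ntrk3 in trained, 2.46 ± 0.297 times in naive and 3.01 ± 0.426 times in control libraries. Ntrk2 makes both a full-length receptor and short forms without the kinase, the short forms mainly in astrocytes, and a gene-level value does not separate them.

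**Figure D1:**
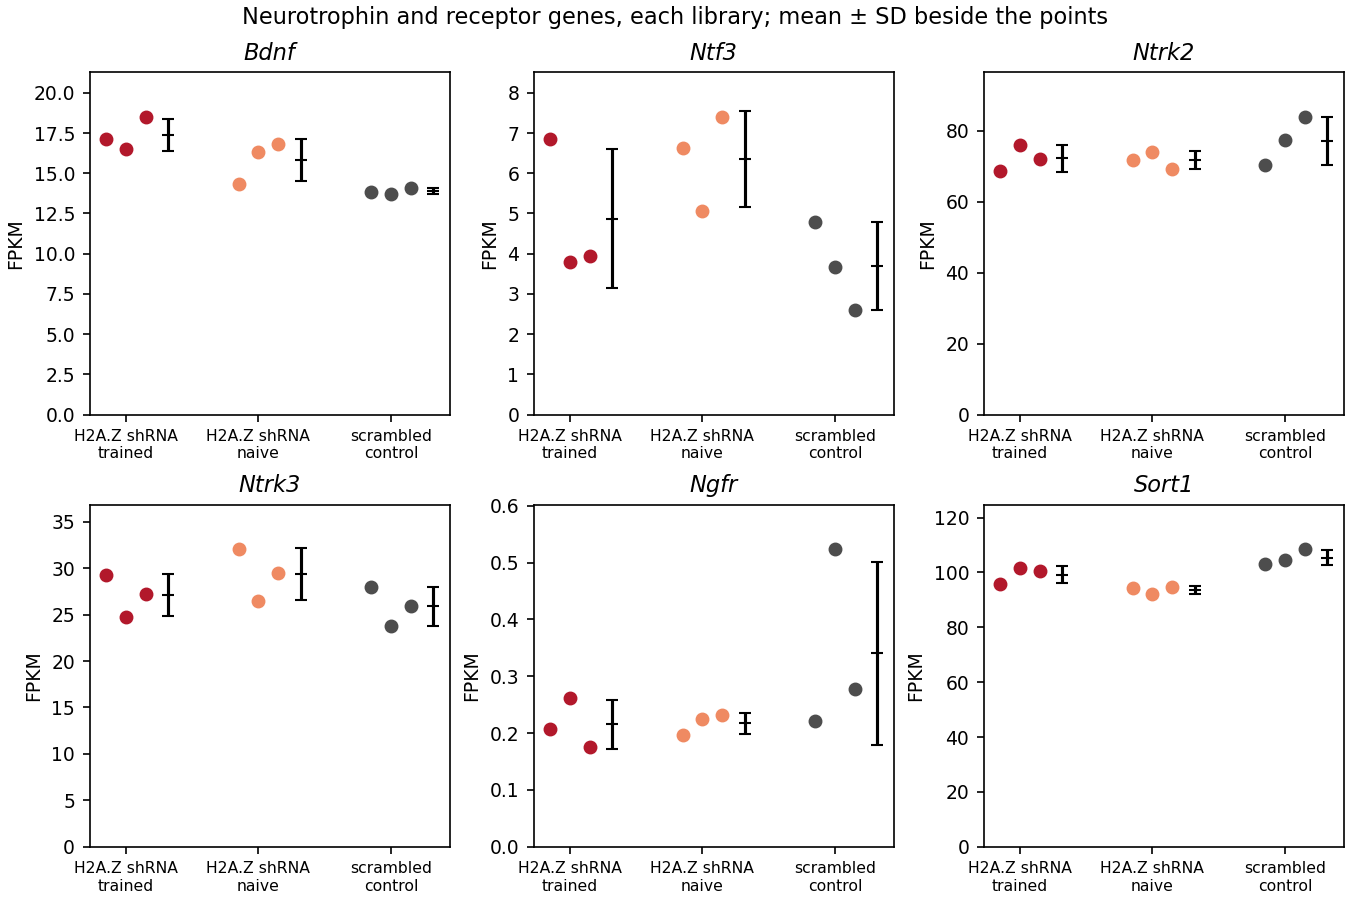
Level in FPKM (vertical axes, starting at 0) of each of the 6 genes in each of the 9 libraries, with the mean ± SD of each group beside its points. Bdnf in all trained and naive libraries lies above its 3 control libraries, while Sort1 in all of them lies below.

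In none of the 4 comparisons did any of the 6 genes pass the threshold. Of the 6, 5 passed the filter of a mean of at least 1 FPKM and were tested with limma on log2(FPKM + 1), while Ngfr was under it. In every comparison 3 of the 5 had an estimate above 0. Of all genes tested, 47.2% had one in trained against control, 55.1% in naive against control, 41.3% in trained against naive, and 52.1% for both H2A.Z shRNA groups against control. At an unadjusted p under 0.05, the trained libraries differed from control for Bdnf, which was higher, beside 7.71% of all genes (3.92% higher and 3.8% lower). Bdnf was higher and Sort1 lower without overlap, beside 12.5% (6.4% higher and 6.08% lower). Naive libraries differed from control at that p for Bdnf and Ntf3, which were higher, and for Sort1, which was lower, beside 15.5% (9.81% higher and 5.69% lower). The same 3 genes did not overlap, beside 19.4% (11.2% higher and 8.23% lower). Between trained and naive libraries there were 0 at that p, beside 8.27% (2.74% higher and 5.53% lower), and Sort1 was higher without overlap, beside 15% (5.79% higher and 9.16% lower). With both H2A.Z shRNA groups against control, Bdnf and Ntf3 were higher and Sort1 lower at that p, beside 12.4% (7.11% higher and 5.26% lower). Bdnf and Sort1 did not overlap there, beside 4.93% (2.94% higher and 2% lower). With 5 genes, these counts are a description. All comparisons with control use the same 3 control libraries, and trained against naive shares its libraries with the others.

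Bdnf stood at 17.1, 16.5 and 18.5 FPKM in the trained libraries, at 14.3, 16.3 and 16.8 FPKM in the naive libraries, and at 13.9, 13.7 and 14.1 FPKM in the control libraries. All 3 trained and all 3 naive libraries lay above all 3 control libraries, while trained and naive libraries overlapped. The group means were 17.4 ± 1.01, 15.8 ± 1.31 and 13.9 ± 0.184 FPKM in trained, naive and control libraries (SD, n = 3 each).

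The log2 fold change of Bdnf in trained against control libraries was 0.30 (SE 0.06, 95% confidence interval 0.16 to 0.45), with a limma adjusted p of 0.504, and between 0.159 and 0.968 over the alternatives. By unadjusted p it ranked 27th of all genes tested in that comparison. In naive against control libraries it was 0.17 (SE 0.06, interval 0.03 to 0.32, limma adjusted p = 0.284), and in trained against naive libraries 0.13 (SE 0.06, interval -0.02 to 0.28, limma adjusted p = 0.622). For both H2A.Z shRNA groups against control it was 0.24 (SE 0.06, interval 0.11 to 0.37, limma adjusted p = 0.287). The exact two-sided permutation p of that difference was 0.0119, the smallest that 6 libraries against 3 can give, unadjusted and 1 of 24 such tests run. It takes trained and naive libraries as 1 group and restates their lack of overlap with control. With 3 libraries against 3 the smallest p possible is 0.1, and Bdnf reached it against control in both the trained and the naive group. The estimate stayed above 0 under all 20 alternatives in each comparison, between 0.26 and 0.34 for trained against control and between 0.13 and 0.24 for naive against control. Many of these could not turn the sign. Against control the groups did not overlap, so leaving out libraries could not do so. A change of the filter, the prior or a library outside the comparison leaves the estimate as it is. For trained against naive the estimate ran between 0.064 and 0.17, with the lowest value without naive replicate 1 and 0.086 without trained replicate 3. At its lowest level, Bdnf rested on roughly 1090 to 1250 fragments.

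Cell type markers also differed between these groups. The 12 microglia markers summed to 282 to 417 FPKM in trained, 289 to 557 in naive and 226 to 276 in control libraries. Of these, 12 of 12 had estimates above 0 in trained and in naive against control, beside 47.2% and 55.1% of all genes. At an unadjusted p under 0.05, 2 were higher in trained and 8 in naive against control, beside 3.92% and 9.81%. The highest dentate sum among control libraries was 210 FPKM, in replicate 1, in which Bdnf stood at 13.9 FPKM. The lowest among trained libraries was 136 FPKM, in replicate 2, in which Bdnf stood at 16.5 FPKM. Both libraries were picked with their values known. With the mean dentate level of each library as a covariate, the log2 fold change of Bdnf was 0.31 in trained and 0.19 in naive libraries against control. With the CA1 marker level as covariate it was 0.33 and 0.24. Dentate and CA1 levels partly went with the groups, so these fits cannot separate group from cell content. The part of dentate neurons, CA1 neurons or microglia in these differences was not tested.

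**Figure D2:**
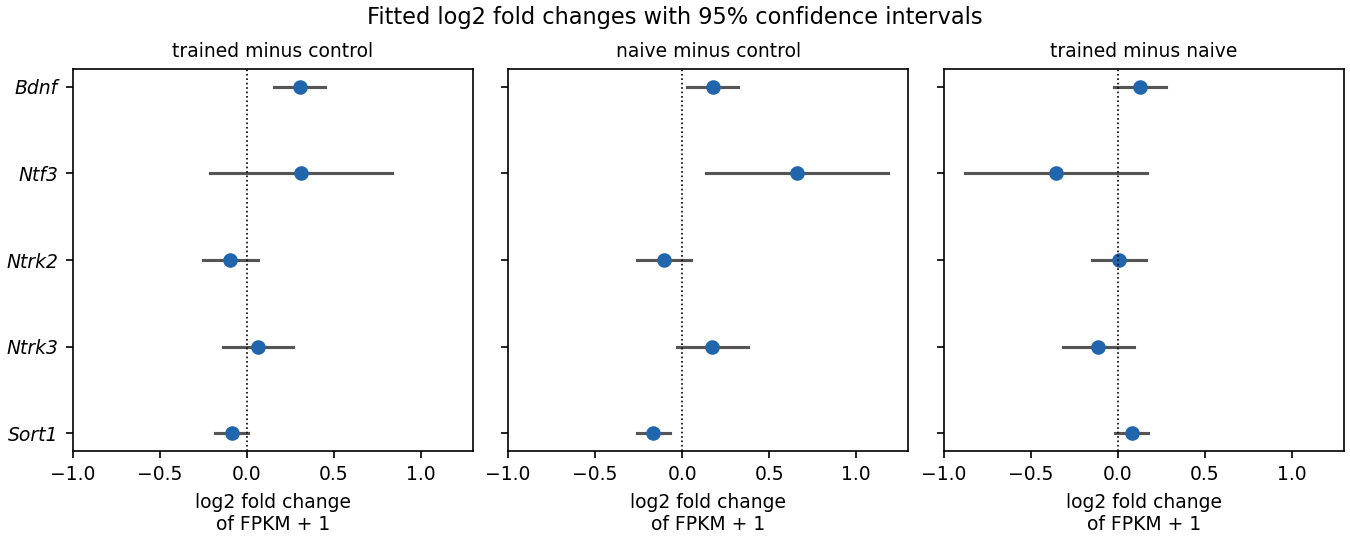
Fitted log2 fold change of FPKM + 1 (horizontal axes) of the 5 genes tested, with 95% confidence intervals that are not adjusted for the number of genes, for trained minus control, naive minus control and trained minus naive. The interval of Bdnf lies above 0 in both comparisons with control, and in naive minus control that of Ntf3 lies above 0 and that of Sort1 below, and those of Ntrk2 and Ntrk3 cross 0 throughout.

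Ntf3, on chromosome 6 at 126101412 to 126166910, minus strand, stood at 6.86, 3.80 and 3.94 FPKM in the trained libraries. It stood at 6.62, 5.05 and 7.40 FPKM in the naive and at 4.79, 3.67 and 2.61 FPKM in the control libraries. All naive libraries lay above all control libraries, whereas the trained group had 1 high library and 2 within the control range. The log2 fold change in naive against control libraries was 0.66 (SE 0.23, interval 0.14 to 1.19, limma adjusted p = 0.265). In trained against control it was 0.31 (SE 0.23, limma adjusted p = 0.707), and in trained against naive -0.35 (SE 0.23, limma adjusted p = 0.711). Single libraries moved these estimates: trained against control gave 0.081 without trained replicate 1, 0.14 without control replicate 3 and 0.48 without control replicate 1. Trained against naive gave -0.58 without trained replicate 1 and -0.23 without trained replicate 2. Its level at the low end rested on roughly 90.8 to 100 fragments.

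Ntf3 was high in the libraries with much dentate granule neuron RNA. The 5 libraries with the highest dentate sums, at 201 to 258 FPKM, were the 3 naive libraries, trained replicate 1 and control replicate 1, and these were also the 5 with the highest Ntf3. All 14 dentate markers tested had estimates above 0 in naive against control, with a median log2 fold change of 0.76, beside 0.02 over all genes, and 0 passed while 10 had an unadjusted p under 0.05, all higher, beside 9.81% of all genes. Prox1, whose product is a transcription factor that granule neurons need, stood at 24.2, 14.1 and 16.2 FPKM in trained, 28.9, 19.7 and 24.7 in naive, and 18.9, 11.8 and 9.66 in control libraries. With the dentate level as covariate, the log2 fold change of Ntf3 was 0.03 (SE 0.13) in trained and 0.07 (SE 0.17) in naive libraries against control. With the CA1 marker level as covariate it was -0.038 (SE 0.14) in naive against control and 0.12 (SE 0.12) in trained against naive libraries, so the sign turned in both. Dentate and CA1 levels partly went with the groups, so these fits cannot separate group from cell content. The part of dentate or CA1 neurons in the Ntf3 differences was not tested. The CA2 and CA3 markers, of which Pcp4 was highest, summed to 234 to 321 FPKM in trained, 322 to 373 in naive and 248 to 280 in control libraries. Much of this sum was Pcp4, which averaged 153 FPKM in trained, 192 in naive and 134 in control libraries. Of the 10 tested, 6 had estimates above 0 and 4 below in naive against control. Their median was 0.04, beside 0.02 over all genes.

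**Figure D3:**
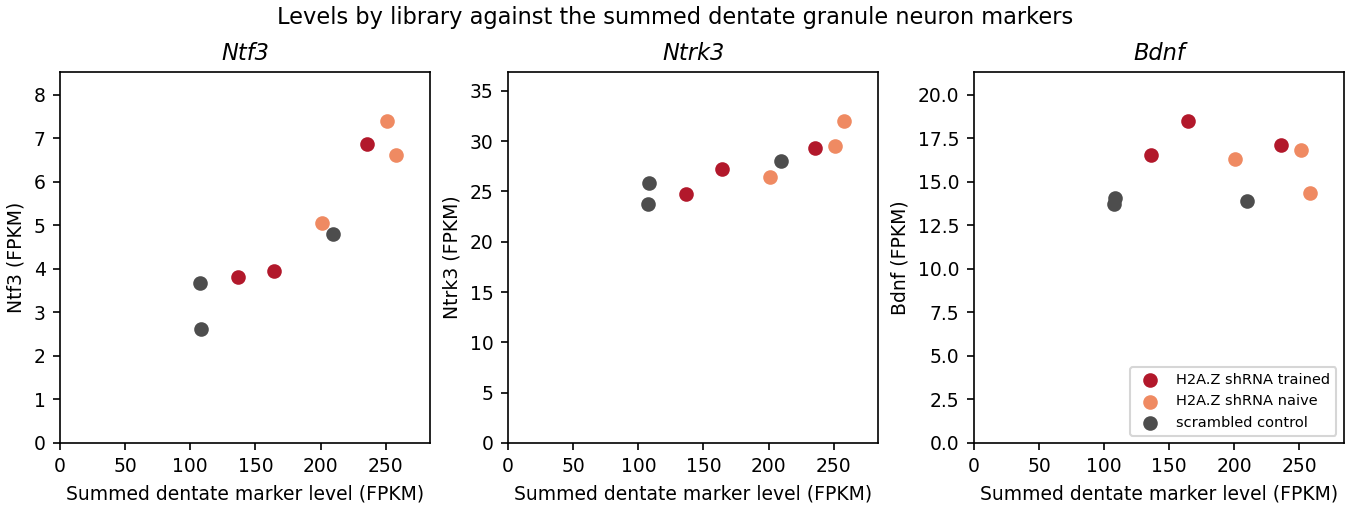
Level in FPKM of Ntf3, Ntrk3 and Bdnf (vertical axes, starting at 0) against the summed FPKM of 15 dentate granule neuron markers (horizontal axes), 1 point per library, coloured by group. Ntf3 and Ntrk3 are higher in libraries with more dentate marker RNA, while the 3 control values of Bdnf stay between 13.7 and 14.1 FPKM over dentate sums of 107.7 to 210 FPKM.

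Of the receptors, Ntrk2 on chromosome 13, 58806569 to 59133970, plus strand, stood at 68.6, 76.1 and 72.1 FPKM in trained, 71.9, 74.1 and 69.2 in naive, and 70.4, 77.5 and 84.0 in control libraries. The groups overlapped, and control replicate 3 was the highest. The log2 fold change was -0.09 (SE 0.07) in trained and -0.10 (SE 0.07) in naive libraries against control, with limma adjusted p of 0.706 and 0.496. As a fold of FPKM + 1, the 95% confidence interval ran between 0.841 and 1.04 for trained over control and between 0.836 and 1.04 for naive over control. In naive against control the sign turned with the dentate covariate (0.061) and with the CA1 covariate (0.070). These fits cannot separate group from cell content either. Astrocyte markers, whose cells also express Ntrk2, summed to 1058 to 1169 FPKM in trained, 1142 to 1326 in naive and 1061 to 1171 in control libraries.

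Ntrk3, on chromosome 7 at 78175959 to 78738012, minus strand, stood at 29.3, 24.8 and 27.2 FPKM in trained, 32.1, 26.5 and 29.5 in naive, and 28.0, 23.7 and 25.9 in control libraries. All groups overlapped. Its log2 fold changes were 0.06 (SE 0.09, limma adjusted p = 0.838) in trained and 0.17 (SE 0.09, limma adjusted p = 0.381) in naive libraries against control. With the dentate covariate these became -0.028 and -0.023, a fit that cannot separate group from cell content. The part of dentate neurons in the Ntrk3 values was not tested. The highest level of Ntrk3 was in naive replicate 1, the library with the highest dentate sum, and the lowest in control replicate 2, the library with the lowest.

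Sort1, on chromosome 3 at 108284082 to 108361511, plus strand, stood at 95.6, 101.4 and 100.6 FPKM in the trained libraries. It stood at 94.4, 92.0 and 94.6 FPKM in the naive libraries, and at 103.2, 104.4 and 108.5 FPKM in the control libraries. Each naive library lay below each trained library, and each trained library below each control library, so that no pair of groups overlapped. That order of the 3 groups without any overlap was found for 0.154% of all genes tested, and separation of all 3 groups in any order for 0.803%. Both patterns were picked with the Sort1 values known, so these shares are a description and no test of Sort1. The distance is small: the group means were 99.2 ± 3.13, 93.7 ± 1.46 and 105.3 ± 2.77 FPKM in trained, naive and control libraries (SD, n = 3 each).

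The log2 fold change of Sort1 in naive against control libraries was -0.17 (SE 0.04, interval -0.26 to -0.07, limma adjusted p = 0.238). In trained against control libraries it was -0.09 (SE 0.04, limma adjusted p = 0.664), and in trained against naive libraries 0.08 (SE 0.04, limma adjusted p = 0.629). For both H2A.Z shRNA groups against control it was -0.13 (SE 0.04, limma adjusted p = 0.325), with an exact two-sided permutation p of 0.0119, unadjusted. As for Bdnf, that permutation p restates the lack of overlap with control. Sort1 kept its sign in each comparison under all 20 alternatives. Since no pair of groups overlapped, leaving out libraries could not turn it, and a change of the filter or the prior leaves the estimate as it is. Markers of CA1 pyramidal neurons also had their lowest median in naive libraries, with sums of 302 to 372 FPKM in trained, 285 to 324 in naive and 324 to 440 in control libraries. With the CA1 level as covariate, the log2 fold change of Sort1 in naive against control libraries was -0.11 (SE 0.06). That level partly went with the groups, and the part of CA1 neurons in the Sort1 values was not tested.

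Ngfr, on chromosome 11 at 95568818 to 95587735, minus strand, was below the filter and has no adjusted p. It stood at 0.207, 0.262 and 0.176 FPKM in trained, 0.197, 0.224 and 0.231 in naive, and 0.221, 0.524 and 0.277 in control libraries. The high value in control replicate 2 corresponds to roughly 38.7 fragments, and the lowest of all, in trained replicate 3, to roughly 11.6. With both H2A.Z shRNA groups set against control, the exact two-sided permutation p was 0.0476, unadjusted. Without control replicate 2 it was 0.25, with the difference on the log2(FPKM + 1) scale at -0.04 in place of -0.13. It was between 0.0357 and 0.25 without each library in turn, an alternative chosen after seeing the data, and under 0.05 only without control replicate 1. In the adult brain p75 is known from cholinergic neurons, whose markers were near 0 here: Chat and Slc18a3 were listed at 0 in some libraries, and the 3 cholinergic markers summed to at most 0.276 FPKM. Choroid plexus markers ranged widely, with sums of 45.3 to 107.3 FPKM in trained, 12.1 to 30.8 in naive and 40.1 to 799.9 in control libraries, the highest in control replicate 3. Endothelial, mural and meningeal markers summed to 87.3 to 96.4 FPKM in trained, 97.2 to 115 in naive and 84.5 to 112 in control libraries. The 10 oligodendrocyte markers summed to 1292 to 1728 FPKM in trained, 1073 to 1736 in naive and 1374 to 2133 in control libraries, and the highest of these sums was in control replicate 2, the library with the highest Ngfr. The part of these cell types in the Ngfr values was not tested.

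The 7 other ligands, receptors and sortilin relatives showed no call either. Of the 5 tested, 0 passed in limma in any comparison. In naive against control libraries 1 had an unadjusted p under 0.05 and was lower, beside 15.5% of all genes (5.69% lower). This was Sorl1, a sorting receptor related to sortilin, which stood at 37.4, 39.7 and 37.1 FPKM in trained, 36.9, 35.8 and 34.6 in naive, and 41.9, 39.0 and 40.5 in control libraries. Its naive libraries lay below all control and all trained libraries. The log2 fold change of Sorl1 in naive against control was -0.17 (SE 0.05, limma adjusted p = 0.242), and for Sorcs1, of the same family, it was -0.25 (SE 0.11, limma adjusted p = 0.331). For Sorcs2 and Sorcs3 it was -0.11 and -0.08, with limma adjusted p of 0.686 and 0.787. Ntf5 was under the filter.

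Proneurotrophins are cut by proteases of the secretory pathway and outside the cell. Of 20 genes of processing and release, 15 were tested and 0 passed in limma in any comparison. Pcsk7, picked out after seeing its values, was listed at 0 in control replicates 1 and 3, naive replicate 1 and trained replicate 3. Elsewhere it stood at 3.66 to 4.66 FPKM, so its log2 fold change is not read, though the counts below include it. Between trained and control libraries, 6 had estimates above 0 and 9 below, with a median log2 fold change of -0.05, beside -0.01 over all genes, and 0 had an unadjusted p under 0.05, beside 7.71% of all genes. In naive against control libraries 1 was higher and 2 were lower at that p, beside 15.5%, and the groups did not overlap for 2 that were higher and 4 that were lower, beside 19.4%. The higher gene was Hap1, which encodes a partner of huntingtin in vesicle transport and is named here outside the rule, with its values known. Hap1 stood at 20.8, 15.3 and 14.6 FPKM in trained, 29.7, 22.9 and 27.3 in naive, and 21.1, 13.7 and 13.9 in control libraries. Its naive libraries lay above all others, with a log2 fold change of 0.70 (SE 0.18, limma adjusted p = 0.238) in naive against control and -0.63 (SE 0.18, limma adjusted p = 0.556) in trained against naive. After the naive libraries, Hap1 was highest in control replicate 1 and trained replicate 1, which like them had high dentate sums. The part of dentate neurons was not tested. In trained against control, the smallest p belonged to Plat, which encodes tissue plasminogen activator, at 10.9 ± 0.599 FPKM in trained and 9.79 ± 1.27 in control libraries. Cadps2, a protein of dense-core vesicle release, stood at 29.7 ± 4.91 and 33.4 ± 2.66 FPKM, and the convertase Pcsk2 at 47.4 ± 2.54 and 50.9 ± 4.05 FPKM in trained and control libraries (SD, n = 3 each). Cadps2 and Pcsk2 were also the 2 genes lower in naive against control at an unadjusted p under 0.05. In naive libraries they stood at 27.6 ± 0.676 and 45.3 ± 0.943 FPKM.

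Below the Trk receptors, 31 adaptors and proximal signalling genes and 37 genes of the MAP kinase and PI3 kinase arms were tested, and 0 of either list passed in limma in any comparison. Their median log2 fold changes in trained against control libraries were 0.01 and -0.02. Of the first list 1 had an unadjusted p under 0.05 above 0 and 1 below, beside 7.71% of all genes, and 5 were higher and 2 lower without overlap, beside 12.5%. Naive against control gave 4 higher and 1 lower at that p, beside 15.5%, and 3 higher and 0 lower without overlap, beside 19.4%. In trained against control, the 3 genes with the smallest p were the following. Crkl, an adaptor, stood at 11.6 ± 1.02 FPKM in trained and 10.3 ± 0.529 in control libraries, Mvb12b at 19.1 ± 0.814 and 20.5 ± 0.218, and the phosphatase gene Ptpn11 at 36.2 ± 0.702 and 39.0 ± 1.88. Of the second list 2 were above 0 and 3 below at that p in trained against control, beside 7.71% of all genes. There, 3 were higher and 4 lower without overlap, beside 12.5%. Naive against control gave 6 higher and 4 lower at that p, beside 15.5%, and 6 higher and 5 lower without overlap, beside 19.4%. The genes named next again had the smallest p in trained against control. Tsc2, a brake on the mTOR kinase, stood at 13.2 ± 0.698 FPKM in trained and 15.9 ± 0.794 in control libraries. The kinase gene Akt2 stood at 17.3 ± 0.224 and 20.4 ± 1.12, and Pdpk1, the kinase that activates Akt, at 27.9 ± 0.286 and 25.1 ± 0.593 FPKM. The limma adjusted p of these 6 genes, picked by their p, lay between 0.504 and 0.649.

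Among 26 partners and signalling genes of p75, 0 passed in limma in any comparison, and the median log2 fold change in trained against control libraries was -0.01. At an unadjusted p under 0.05, 3 were higher and 1 lower in trained against control, beside 7.71% of all genes, and 3 were higher and 2 lower in naive against control, beside 15.5%. Mapk9, a stress-activated kinase gene picked out after seeing its values, was listed at 0 in control replicate 1 and at 35.2, 37.7 and 35.0 FPKM in trained libraries, so its log2 fold change is not read. Adam10, a membrane protease, stood at 26.7 ± 1.16 FPKM in trained, 26.3 ± 1.13 in naive and 22.4 ± 1.51 in control libraries. Traf6, an adaptor of p75, stood at 4.17 ± 0.205, 3.89 ± 0.138 and 3.64 ± 0.0950 FPKM in trained, naive and control libraries.

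Of 34 regulators of Bdnf transcription tested, 0 passed in limma in any comparison. Between trained and control libraries, 23 had estimates above 0 and 11 below, with a median of 0.05, beside -0.01 over all genes and 47.2% of all genes above 0. At an unadjusted p under 0.05 there were 2, both above 0, beside 7.71% of all genes (3.92% higher), and 4 were higher and 0 lower without overlap, beside 12.5%. Naive against control gave 5 higher and 3 lower at that p, beside 15.5%, and 8 higher and 4 lower without overlap, beside 19.4%. Atf1, a relative of the factor CREB, stood at 4.38 ± 0.251 FPKM in trained, 4.57 ± 0.485 in naive and 3.52 ± 0.315 in control libraries. The corepressor gene Sin3a stood at 7.37 ± 0.148, 7.39 ± 0.158 and 6.82 ± 0.118 FPKM. Fndc5, whose product is known to raise Bdnf in cultured neurons, stood at 35.2 ± 2.89, 30.4 ± 1.41 and 39.2 ± 4.43 FPKM in trained, naive and control libraries.

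Genes that BDNF is known to induce in cultured neurons mostly had higher levels in trained libraries than in the other groups, without passing the threshold. They are not specific to BDNF, since most are immediate early genes that other signals of activity induce too, and the list was chosen with earlier results of these data known. Of 23 tested, 0 passed in limma in any comparison. For trained against control, 21 had estimates above 0, beside 47.2% of all genes, and 9 had an unadjusted p under 0.05 and an estimate above 0, beside 3.92%. The groups did not overlap for 9, all higher, beside 6.4%. The median was 0.19, and 0.16 to 0.31 over the alternatives. In trained against naive libraries 22 were above 0, beside 41.3% of all genes, with a median of 0.27. Of these, 11 had an unadjusted p under 0.05, beside 2.74% of all genes above 0 at that p. In naive against control libraries 10 were above 0 and 13 below, beside 55.1% of all genes above 0, with a median of -0.04. That median ran between -0.12 and 0.13 over the alternatives and turned its sign in 4 of them: 0.015 without control replicate 3, 0.063 without naive replicate 1, 0.0034 with the dentate covariate and 0.13 with the CA1 covariate. Summed over the 24 genes, the level was 658 to 791 FPKM in trained, 499 to 611 in naive and 548 to 627 in control libraries. The trained libraries lay above all others in this sum, whereas Bdnf itself stood above control in the naive libraries too.

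Fos, a subunit of the AP-1 factor, stood at 7.55, 12.2 and 11.7 FPKM in trained, 5.24, 6.67 and 6.72 in naive, and 6.16, 4.59 and 3.55 in control libraries. Egr4, a transcription factor gene, stood at 14.4, 17.1 and 18.7 FPKM in trained, 10.9, 10.8 and 13.1 in naive, and 12.4, 10.6 and 12.8 in control libraries. Arc, which encodes a protein of active synapses, stood at 95.7, 113 and 118 FPKM in trained, 46.8, 63.8 and 62.8 in naive, and 88.4, 32.9 and 36.8 in control libraries. For all 3 genes each trained library lay above each control library, though control replicate 1 came near the lowest trained library for Arc. Their limma adjusted p in trained against control libraries lay between 0.504 and 0.557.

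**Figure D4:**
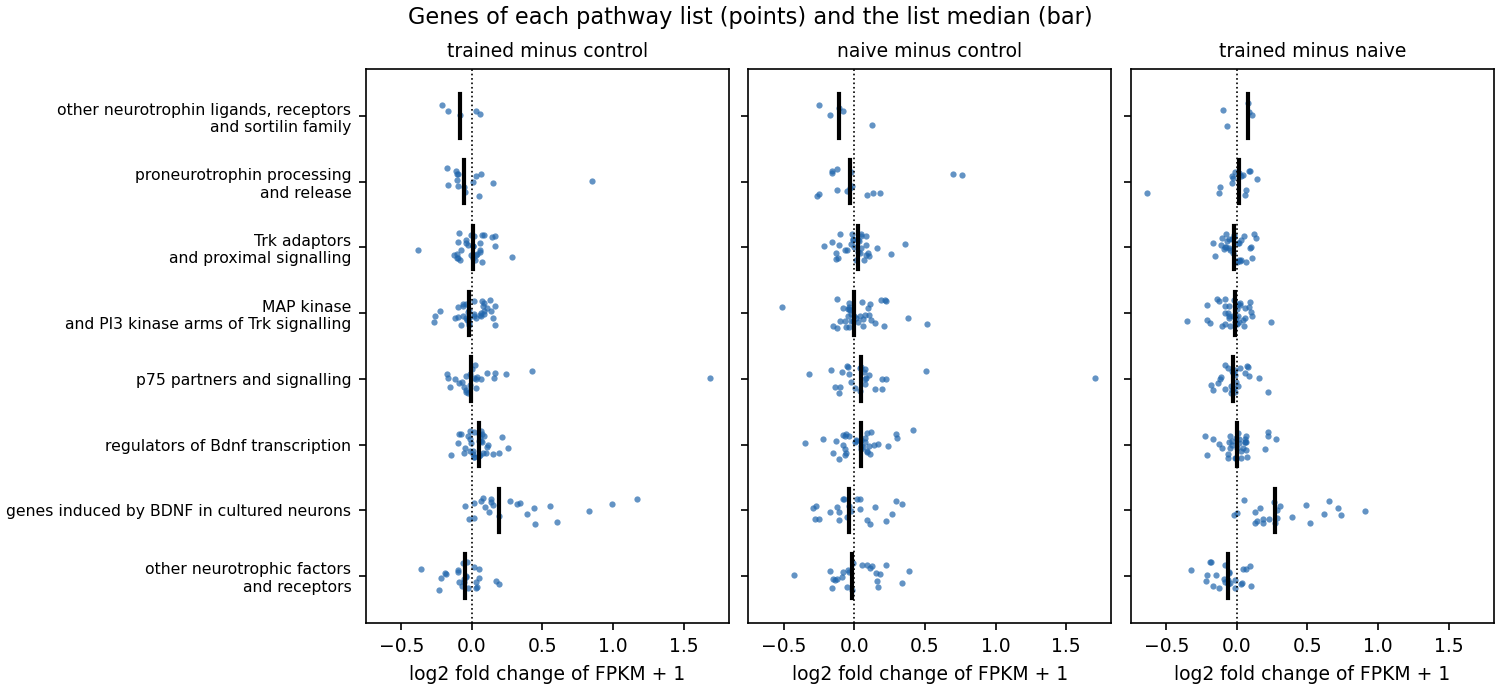
Log2 fold change of FPKM + 1 (horizontal axes, same range in all panels) of each tested gene in 8 pathway lists (points, spread vertically at random within a row), with the list median as a bar. The genes induced by BDNF in cultured neurons have medians of 0.19 in trained minus control and 0.27 in trained minus naive, against -0.04 in naive minus control, a median whose sign turned in 4 of 20 alternatives. In the comparisons with control, the point farthest right in the p75 row is Mapk9, listed at 0 in 1 control library. In the proneurotrophin row it is Pcsk7, listed at 0 in some libraries of each group.

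Other neurotrophic factors and receptors, from the GDNF, CNTF, FGF and related families, gave 24 tested genes with 0 past the threshold in limma. For trained against control, 8 were above 0 and 16 below, beside 47.2% of all genes above 0, with 3 below 0 at an unadjusted p under 0.05, beside 3.8% lower. For naive against control, 11 were above 0 and 13 below, with 4 higher and 1 lower at that p, beside 9.81% and 5.69%. The 3 genes lower in trained libraries at that p were Pdgfra at 6.18 ± 0.641 FPKM in trained and 7.44 ± 0.604 in control libraries, Fgfr3 at 16.4 ± 0.697 and 18.9 ± 1.32, and Cntfr at 24.1 ± 1.89 and 27.5 ± 1.56. Pdgfra marks precursors of oligodendrocytes and Fgfr3 marks astrocytes.

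The genes whose profile over the 9 libraries was most like that of Bdnf were Zfp87, Prps1l3, Traf6, Mtus2 and Cyth3. The measure is the mean absolute difference between standardised log2(FPKM + 1) values, in SD units, and the candidates were 11518 genes. For these 5 it was 0.289, 0.297, 0.317, 0.355 and 0.356, beside a median of 1.081 over all candidates. For Ntf3 the closest genes were Pcp4, an abundant gene of CA2 and dentate neurons, at 0.0978, and Gfra2, a receptor of the GDNF family, at 0.131. Gfra2 stood at 13.9, 10.6 and 10.3 FPKM in trained, 13.6, 12.0 and 14.3 in naive, and 12.2, 9.85 and 8.08 in control libraries, which is the order of Ntf3 within each group except among the low trained libraries. Closest to Ntrk2 were Foxp1 and Snx12, at 0.171 and 0.177, and closest to Ntrk3 were Shc2, an adaptor of receptor tyrosine kinases, and Prkce, at 0.186 and 0.190. For Sort1 they were Zmat3 and Elovl6, at 0.199 and 0.231, and for Ngfr Kif5b and Pogk, at 0.164 and 0.205. These values are descriptions, with no test.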

How the data were processed

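The authors deposited FPKM values per gene and library, with no counts; the submitters' processing notes name FastQC, TopHat 1.4.0, mm10, Cufflinks and Cuffdiff. Per the labels' protocols, directional libraries of polyadenylated RNA were sequenced as 50 bp paired-end reads. The sources used here do not give the annotation or whether counting used strand, so reads of antisense genes that overlap Bdnf, Ntrk2, Ntrk3 and Sort1 may be included.

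Of 24489 rows, 12327 with a mean of at least 1 FPKM were fitted as log2(FPKM + 1), a pseudocount that understates changes of low genes. limma 3.58.1 (R 4.3.3) used 3 groups, a trended prior variance, two-sided tests and Benjamini-Hochberg adjustment over all genes tested, with a threshold of 0.05, and was tested on simulated data. Relative depth, from single-fragment steps with Python 3.11.15, lay between 0.871 and 1.26 times that of control replicate 2. Fragment numbers are estimates, so no counting interval is given. Coordinates are from GENCODE M21 on GRCm38, the assembly of mm10.

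The 6 genes, 8 pathway lists, 10 cell type lists and tests were chosen with earlier results of these data known. Named are the 6 genes, their relatives, the genes most like each in profile and, of other pathway lists, the 3 with the smallest unadjusted p in trained against control libraries, since none passed; some genes that this rule names are not reported here. Replicates were numbered in accession order. The exact permutation p-values of the 24 tests are given unadjusted. Each result was computed again under up to 20 alternatives.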

Additional observations from a re-analysis of the deposited data

How the results depend on the processing

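None of the 6 genes passed the threshold under any of the 20 alternatives, and Bdnf and Sort1 kept their signs in all 4 comparisons. Where groups did not overlap, leaving out libraries could not turn a sign, and some alternatives leave the estimate as it is. Ntf3 had 19 alternatives, since it lies under the filter of 5 FPKM, and Ngfr was fitted only without a filter. With the dentate covariate, the log2 fold change of Ntrk2 was 0.061 in naive against control, -0.078 in trained against naive and 0.022 for both H2A.Z shRNA groups against control. That of Ntrk3 was -0.028 in trained, -0.023 in naive and -0.025 in both groups against control. With the CA1 covariate, Ntf3 gave -0.038 in naive against control and 0.12 in trained against naive. Ntrk2 then gave 0.070, -0.11 and 0.017 in naive against control, trained against naive and both groups against control, and Ntrk3 gave 0.0035 in trained against naive. Without each library in turn, Ntrk2 in trained against naive ranged from -0.028 to 0.046. The cause was not tested. Of the list medians recomputed, 1272 stayed within the spread between libraries and 88 moved by more.

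Over all genes, the counts higher and lower in trained against control (1 and 0) became 0 to 16 and 0 to 7 without each library in turn, the highest without control replicate 1. They were 0 higher with no filter or either covariate, 3 higher with only the groups compared, and 4 and 3 without both control replicate 1 and naive replicate 2. Naive against control (0 and 0) became 0 to 12 and 0 to 5 without each library, with 12 higher without naive replicate 1. It gave 2 higher with a filter of 5 FPKM, 3 higher with array weights, and 2 and 3 without both libraries. Trained against naive (1 and 0) became 0 to 2 and 0 to 21, with 21 lower without naive replicate 1. It gave 1 lower with only the groups compared or the dentate covariate, and 0 higher with the CA1 covariate or without both libraries. Both groups against control (0 and 0) became 0 to 24 and 0 to 12, the highest without control replicate 1, with 3 higher under array weights and 3 and 3 without both libraries. No paired analysis was possible because the labels give the groups no shared replicate numbers.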
